A study of Mus musculus with 6 samples.

Results

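Genes for the Polycomb complexes and for the enzymes that write and erase histone methylation were followed in mouse double-negative (DN) thymocytes, immature T-cell precursors that lack the coreceptors CD4 and CD8. The 49 genes were listed by role, as 11 of Polycomb repressive complex 2 (PRC2), 16 of Polycomb repressive complex 1 (PRC1), 12 demethylases and 10 methyltransferases. Of these, 48 were measured, each by the probe set naming that gene alone with the highest mean over the 6 arrays, among 19937 genes so represented. Cbx6, a chromobox protein of PRC1, shares its probe set with other genes and was not analysed here.

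The comparison rests on 6 Affymetrix arrays, 3 in each group. The RAG-/- group holds DN thymocytes of mice without Rag2, a recombinase gene needed to assemble antigen receptors. The DNTLX3+ group holds sorted wild-type DN thymocytes transduced with the retroviral vector pMSCV-GFP-TLX3, which carries TLX3, a homeobox oncogene of T-cell acute lymphoblastic leukaemia. Those cells were kept for 4 to 5 weeks on irradiated OP9-DL1 stroma, which presents a Notch ligand, in medium with interleukin 7 and Flt3 ligand. The labels give C57Bl/6 mice of 4 to 6 weeks for all samples, and call the groups Control and Tumoral. A vector without TLX3 is named in the protocol, but no array of cells that received it was analysed here, so genotype, vector and, if the RAG-/- cells were not cultured, culture cannot be told apart. Whether replicates came from separate animals or cultures is not stated, so p-values cover only the spread among these samples, and that spread may be technical.

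PRC2 places methyl groups on histone H3 at lysine 27 (H3K27) through its catalytic subunit Ezh1 or Ezh2, which works with Suz12 and Eed, and PRC1 reads that mark through its chromobox proteins and marks histone H2A with ubiquitin through Ring1 or Rnf2. The KMT2 enzymes methylate H3K4 at promoters and enhancers and oppose Polycomb silencing, and the demethylases remove such marks. In human T-cell acute lymphoblastic leukaemia, PRC2 genes and KDM6A are known targets of loss-of-function mutation, and KMT2A is known for its fusions.

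Values are on the log2 scale, and each difference is DNTLX3+ minus RAG-/-. A gene is said to have risen or fallen where limma's p, adjusted by Benjamini-Hochberg over all probe sets, was under 0.05, and a stricter rule also asks for a difference of at least 1. The signal range differed between the groups, with an interquartile range of 3.09 to 3.18 on the RAG-/- arrays and 2.47, 2.85 and 2.75 on DNTLX3+ replicates 1, 2 and 3. Genes above the median level, as all 48 members were, had a median difference of -0.14, against 0.00 once the deposited values had been quantile-normalized a second time. Both scalings therefore stand beside the results where they differ. All 11 DN T-lineage markers were above the array medians in both groups. Of these, 8 fell and 1, Gata3, rose by 0.66. All 14 myeloid and dendritic markers, 8 of 10 thymic epithelial markers and 7 of 10 natural killer markers fell, and 11 of 15 proliferation genes rose. Gzma, a granule protease of the natural killer list, rose by 0.76. Of the coreceptor genes, Cd8b1 rose from 5.48 to 7.0 (limma adjusted p = 0.000157), while Cd4 and Cd8a did not pass the test. Of 5 B-lineage markers 1 rose and 1 fell, and of 5 stroma markers 1 fell. The summed level of the myeloid list was 12.85 to 13.16 on the RAG-/- arrays and 9.55 to 9.74 on the DNTLX3+ arrays, on a log2 scale. It was 15.07 to 15.13 and 14.47 to 14.79 for the T-lineage list. For the epithelial list these were 12.6 to 13.47 and 10.18 to 10.42, for the natural killer list 11.16 to 11.39 and 10.42 to 10.88, and for the proliferation list 13.68 to 13.81 and 14.14 to 14.44. No myeloid marker averaged under the array medians in the RAG-/- group, and 12 of 14 did in the DNTLX3+ group, among them H2-Aa and Cd74. The part of these cells, and of the share of dividing cells, in the results below was not tested. In such bulk samples, fewer cells of a type and less RNA per cell cannot be told apart.

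The gene of the vector was higher where the label says so. Tlx3 was at 5.4, 5.42 and 5.52 in the RAG-/- arrays and at 7.09, 6.52 and 6.45 in the DNTLX3+ arrays (limma adjusted p = 0.00103). This is a dim signal: the RAG-/- values lie under the array medians of 6.22 to 6.25. On DNTLX3+ replicates 2 and 3 the values lie little above the medians of 6.23 and 6.28. Rag2 was at 8.02 ± 0.08 and 7.72 ± 0.24 (SD, n = 3 in each group, limma adjusted p = 0.124), and it checks nothing, since where its probes lie with respect to the deletion is not known here.

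Of the 48 measured genes, 4 rose, 19 fell and 25 did neither. Over all 19937 genes, 23.0% rose and 19.4% fell at the same threshold, and over the 10756 above the median level 15.1% rose and 30.6% fell. By role, 8 of 10 methyltransferases, 5 of 12 demethylases, 3 of 11 PRC2 genes and 3 of 15 PRC1 genes fell. The methyltransferases and demethylases are mostly long genes, with median lengths of 74.6 and 75.2 kb. Of all genes above the median level and from 61.0 kb in length, 47.5% fell, and the demethylases were near that share. By the stricter rule 4 genes were lower, namely Kmt2c, Kmt2a, Phc3 and Kmt2e, where 5.07% of all genes and 7.62% of those above the median level were, and 1 was higher, Rybp, where 1.44% of all genes were. The groups did not overlap for 25 members lower and 6 higher in DNTLX3+, where 26.0% and 32.3% of all genes showed this. The median difference was -0.11 for PRC2, -0.05 for PRC1, -0.36 for the demethylases and -0.68 for the methyltransferases, beside 0.10 over all genes. After quantile normalization again these medians were 0.02, 0.05, -0.23 and -0.53, beside 0.04 over all genes, so the methyltransferase median was low under either scaling. Members of both Polycomb complexes went either way, with differences from -0.72 to 0.53 in PRC2 and from -1.15 to 1.14 in PRC1.

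**Figure D1:**
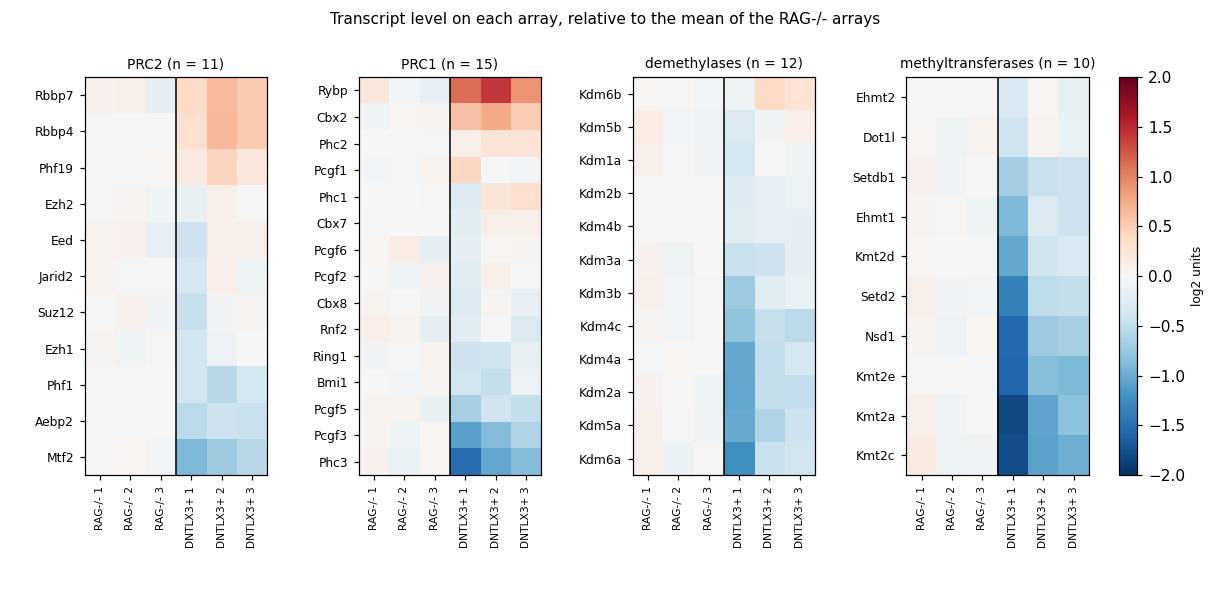
Level of each of the 48 measured members on each of the 6 arrays (columns), in log2 units relative to the mean of the 3 RAG-/- arrays, with red for higher and blue for lower, in 4 panels by role. The methyltransferase panel is blue on all 3 DNTLX3+ arrays for the 8 genes that fell and darkest on replicate 1, where Kmt2a was at 8.60 against a RAG-/- mean of 10.41, while most of the PRC2 and PRC1 lines are pale.

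The promoters of the 3 largest falls, and of Rbbp4, a gene that rose, are shown to let the control regions of genes with opposite change be read side by side. Windows run from 250 bases before to 50 after the start site, taken from RefSeq on GRCm38.p6, and 39 of the 49 genes had one. Capitals mark matches to any of 4 motifs searched on both strands, none of which contains another: CCGGAAG for ETS factors, TGTGGT for RUNX factors, TTCCCGC for E2F factors and CACGTG, the E-box bound by MYC.
Kmt2a, chr9:44881240-44881539, minus strand: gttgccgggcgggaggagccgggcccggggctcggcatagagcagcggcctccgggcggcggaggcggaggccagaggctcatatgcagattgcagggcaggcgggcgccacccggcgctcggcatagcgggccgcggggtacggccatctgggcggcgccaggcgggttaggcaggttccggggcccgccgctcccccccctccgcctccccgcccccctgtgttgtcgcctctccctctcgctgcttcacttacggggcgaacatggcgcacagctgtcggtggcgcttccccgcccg
Kmt2c, chr5:25498734-25499033, minus strand: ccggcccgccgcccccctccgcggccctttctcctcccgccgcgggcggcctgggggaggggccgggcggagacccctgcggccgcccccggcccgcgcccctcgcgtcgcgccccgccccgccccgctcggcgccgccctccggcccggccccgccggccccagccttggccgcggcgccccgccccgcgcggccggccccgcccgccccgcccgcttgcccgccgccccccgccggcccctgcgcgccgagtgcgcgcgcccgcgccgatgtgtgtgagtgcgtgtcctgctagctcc
Phc3, chr3:30969366-30969665, minus strand: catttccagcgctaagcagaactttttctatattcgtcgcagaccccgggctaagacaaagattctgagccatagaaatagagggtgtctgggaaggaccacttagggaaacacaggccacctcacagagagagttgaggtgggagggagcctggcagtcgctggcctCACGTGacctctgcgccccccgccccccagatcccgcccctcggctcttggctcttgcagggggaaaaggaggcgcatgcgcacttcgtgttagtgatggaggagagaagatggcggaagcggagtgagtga
Rbbp4, chr4:129335321-129335620, minus strand: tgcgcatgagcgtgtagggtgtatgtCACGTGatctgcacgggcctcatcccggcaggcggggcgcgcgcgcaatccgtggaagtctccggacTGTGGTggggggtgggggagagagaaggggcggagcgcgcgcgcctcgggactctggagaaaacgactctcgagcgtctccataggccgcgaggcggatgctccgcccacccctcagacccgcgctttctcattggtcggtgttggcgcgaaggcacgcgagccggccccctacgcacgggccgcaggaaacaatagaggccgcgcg
The windows of Kmt2a and Kmt2c are rich in CG, with 36 and 56 CpG dinucleotides, and hold none of the 4 motifs. That of Phc3 holds 15 CpG and 1 E-box, and that of Rbbp4 holds 39 CpG, 1 E-box and 1 RUNX match. Over the 39 member windows the median was 24 CpG, against 7 over the 27025 windows of all genes. The E-box was found in 9 of 39 member windows (23.1%) and in 7.2% of all windows, or 11.1% of the 11866 windows with at least 10 CpG. It stood in 2 of the 15 windows of genes that fell, 1 of the 2 of genes that rose, 5 of the 21 of genes that did neither and that of Cbx6, which was not measured. The ETS motif stood in 5.1% of member windows and 9.1% of all windows, the RUNX motif in 15.4% and 16.9%, and the E2F motif in 5.1% and 4.7%. Of the member windows, 36 hold at least 10 CpG, and over all windows with at least 10 CpG the ETS, RUNX and E2F shares were 17.5%, 11% and 9.3%, so the RUNX and E2F comparisons turn with the background used. These are matches of letters, not measured binding.

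The catalytic core of PRC2 did not pass the test. Ezh2, its methyltransferase in dividing cells, was at 10.49, 10.52 and 10.39 in the RAG-/- arrays and at 10.31, 10.56 and 10.49 in the DNTLX3+ arrays, a difference of -0.01 ± 0.13 (SE). Suz12, the scaffold subunit, was at 9.48, 9.58 and 9.42 and at 9.04, 9.42 and 9.54. Eed, which binds the methylated histone, was at 8.34, 8.35 and 8.11 and at 7.85, 8.38 and 8.38. In all 3 genes the groups overlap and DNTLX3+ replicate 1 is the lowest array of its group. Their limma adjusted p were 0.941, 0.416 and 0.784, and Ezh1, the paralog of Ezh2, differed by -0.17 (limma adjusted p = 0.342). A second, dim probe set of Eed gave 0.81 from a mean of 4.70 (limma adjusted p = 0.0192), a level under the array medians.

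The histone-binding subunits Rbbp4 and Rbbp7, which PRC2 shares with other chromatin complexes, rose. Rbbp4 went from 10.56 ± 0.02 to 11.06 ± 0.17 (SD, n = 3), 1.42-fold, and Rbbp7 from 10.32 ± 0.18 to 10.84 ± 0.13, 1.44-fold, and every DNTLX3+ array lay above every RAG-/- array (limma adjusted p = 0.0138 and 0.0155). The Rbbp7 probe set used is numbered among genes elsewhere on chromosome X, and the one numbered among the neighbours of Rbbp7 itself gave 0.44 ± 0.13 (SE, limma adjusted p = 0.0276). Without RAG-/- replicate 1, 2 or 3, Rbbp4 missed the threshold (limma adjusted p = 0.0522, 0.0509 and 0.0528) at differences of 0.51, 0.51 and 0.50, and Rbbp7 missed it without RAG-/- replicate 3 (0.43, limma adjusted p = 0.0701).

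Of the accessory subunits of PRC2, 3 fell. Mtf2, a Polycomb-like protein that brings PRC2 to CpG-rich DNA, was at 11.41, 11.42 and 11.33 in the RAG-/- arrays and at 10.49, 10.67 and 10.83 in the DNTLX3+ arrays. It fell 1.65-fold with no overlap of the groups (limma adjusted p = 0.00298), and was called without any 1 array and under both scalings (-0.66 and -0.65). Aebp2, a DNA-binding cofactor, and Phf1, a further Polycomb-like protein, fell by 0.46 and 0.43, but were not called after a second quantile normalization (-0.26 and -0.21) or cyclic loess (-0.29 and -0.26). Aebp2 also lost its call without RAG-/- replicate 1 (-0.46), and Phf1 without any one of the 3 RAG-/- arrays (-0.44, -0.42 and -0.44). The third Polycomb-like gene, Phf19, was at 7.09 ± 0.04 and 7.37 ± 0.14 (SD, n = 3) with no overlap, and missed the threshold as deposited (limma adjusted p = 0.0936) while it passed after a second quantile normalization (0.44), after cyclic loess (0.38) and without DNTLX3+ replicate 1 (0.34). Jarid2, which helps recruit PRC2, differed by -0.11.

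Among PRC1 genes, the largest fall was in Phc3, a polyhomeotic protein that joins PRC1 units into larger bodies. It was at 9.5, 9.29 and 9.46 in the RAG-/- arrays and at 7.89, 8.38 and 8.54 in the DNTLX3+ arrays, so that the groups lie far apart. It fell 2.22-fold (limma adjusted p = 0.00147), and its second probe set gave -1.18 beside -1.15 for the first. The difference was -0.96 without DNTLX3+ replicate 1 and -0.98 under both scalings, short of the stricter rule but past the test. Its paralog Phc1 was at 8.29, 8.29 and 8.31 in the RAG-/- arrays and at 8.0, 8.54 and 8.63 in the DNTLX3+ arrays, a difference of 0.09. Phc2 differed by 0.20 (limma adjusted p = 0.194), with every DNTLX3+ array above every RAG-/- array, and passed the test after a second quantile normalization (0.41) and cyclic loess (0.36).

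Of the PCGF genes, whose proteins define the variants of PRC1, 2 fell. Pcgf3 was at 9.02, 8.86 and 9.0 in the RAG-/- arrays and at 7.87, 8.10 and 8.36 in the DNTLX3+ arrays, and fell 1.80-fold (limma adjusted p = 0.0027). Pcgf5, its close relative, fell 1.43-fold (limma adjusted p = 0.0141), but not past the threshold without RAG-/- replicate 1 (-0.48) or 2 (-0.48). Bmi1, known for the self-renewal of blood stem cells, was at 9.05, 9.01 and 9.11 and at 8.69, 8.57 and 8.95, with no overlap and a limma adjusted p of 0.0835. Pcgf2 was at 6.71, 6.63 and 6.81 and at 6.48, 6.84 and 6.69, with the groups overlapping. Pcgf1 and Pcgf6 differed by 0.11 and -0.03, and the ubiquitin ligases Ring1 and Rnf2 by -0.32 and -0.17, none of them past the test as deposited. For Ring1 every DNTLX3+ array lay under every RAG-/- array. Without DNTLX3+ replicate 3, Bmi1 (-0.43) and Ring1 (-0.405) were called lower. After a second quantile normalization Bmi1 (-0.14) and Ring1 (-0.11) were not called.

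Cbx2, the chromobox protein of PRC1 that compacts chromatin, rose. It was at 8.13, 8.27 and 8.28 in the RAG-/- arrays and at 8.81, 8.98 and 8.73 in the DNTLX3+ arrays, 1.53-fold higher with no overlap (limma adjusted p = 0.00512). The rise was called without any 1 array, and was 0.81 after a second quantile normalization and 0.79 after cyclic loess. Cbx7 and Cbx8 differed by 0.01 and -0.13 and did not pass the test.

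Rybp, a subunit of the variant PRC1 complexes, had 2 probe sets that disagree. The one that represents the gene here was at 6.99, 6.71 and 6.60 in the RAG-/- arrays and at 7.88, 8.18 and 7.66 in the DNTLX3+ arrays, a rise of 2.20-fold (limma adjusted p = 0.00121). The other was at 7.16, 7.43 and 7.0 and at 7.40, 7.01 and 7.55, with the groups overlapping (difference 0.12, limma adjusted p = 0.584). The first has the higher mean over the 6 arrays, which chose it, only through the DNTLX3+ arrays (7.91 against 7.32), and is the dimmer in RAG-/- (6.76 against 7.20). Probe sets of this array are numbered along the genome: of 54 probe sets of the members, 50 have at least 4 of their 6 nearest numbered neighbours within 2 Mb of the gene. The Rybp gene lies on chromosome 6, and 5 of 6 neighbours of the second probe set lie near it. None of the neighbours of the first one does, and most of those with a known place lie on chromosome 13. Rybp and Rbbp7 are the only members represented by a probe set with no such neighbour near the gene. Represented by the probe set at its own gene, Rybp is not called, and no member rises by the stricter rule.

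**Figure D2:**
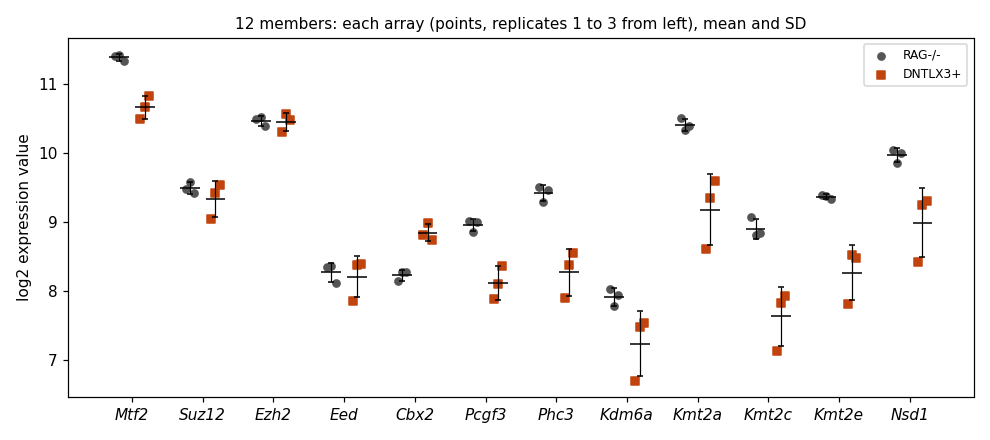
Log2 expression values of 12 members on each array, with grey circles for the 3 RAG-/- arrays, orange squares for the 3 DNTLX3+ arrays (replicates 1 to 3 from left) and bars for the mean and SD. Ezh2, Suz12 and Eed overlap between the groups, Cbx2 is higher, and Kmt2a shows both a fall and the widest spread of the 12 in DNTLX3+ (SD 0.51, n = 3).

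Of the 12 demethylases, 5 fell, 7 did neither and none rose (limma, 0 higher also at an unadjusted p under 0.05), and the difference was below 0 for 11 as deposited. Of these, Kdm2b turned to 0.03 after a second quantile normalization, and Kdm5b to 0.04 and Kdm1a and Kdm2b to 0.00 with cyclic loess. A difference below 0 as deposited was common, since all genes above the median level had a median of -0.14. Kdm6a, an X-linked eraser of the Polycomb mark on H3K27, was at 8.02, 7.77 and 7.93 in the RAG-/- arrays and at 6.69, 7.47 and 7.54 in the DNTLX3+ arrays. It fell 1.60-fold without overlap (limma adjusted p = 0.0327), though DNTLX3+ replicate 1 stood well under the other 2. The call was lost without RAG-/- replicate 1, 2 or 3 (-0.62, -0.75 and -0.67), after a second quantile normalization (-0.53) and after cyclic loess (-0.53), and the difference was -0.41 without DNTLX3+ replicate 1. Its paralog Kdm6b was at 9.12, 9.11 and 9.03 and at 8.99, 9.48 and 9.36, a difference of 0.19 (limma adjusted p = 0.329). Kdm6b passed the test with a higher level after a second quantile normalization (0.35), with cyclic loess (0.34) and without DNTLX3+ replicate 1 (0.33).

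Kdm5a, which removes methyl groups from H3K4, was at 9.99, 9.83 and 9.79 in the RAG-/- arrays and at 8.86, 9.28 and 9.46 in the DNTLX3+ arrays. It fell 1.59-fold (limma adjusted p = 0.0118), and its paralog Kdm5b, at 10.20, 10.00 and 9.95 and at 9.76, 9.99 and 10.19, overlapped between the groups. Kdm4c and Kdm4a, which act on H3K9 and H3K36, fell 1.52-fold and 1.54-fold, and Kdm4b differed by -0.20. Kdm2a, which binds CpG islands and acts on H3K36, fell 1.59-fold (limma adjusted p = 0.0126), while Kdm2b, which binds CpG islands with the Pcgf1 form of PRC1, differed by -0.17. Only Kdm4c of the 5 was called without any 1 array. Kdm2a and Kdm5a lost the call without RAG-/- replicate 1 (-0.63 and -0.61), and Kdm4a without RAG-/- replicate 1, 2 or 3 (-0.64, -0.61 and -0.63). The H3K9 demethylases Kdm3a and Kdm3b stood at -0.35 and -0.37 with limma adjusted p of 0.0571 and 0.103, and Kdm1a, the H3K4 demethylase of repressor complexes, at -0.14. Kdm3a was called lower when the array medians were made equal (-0.41), without DNTLX3+ replicate 3 (-0.43), with dim probe sets left out and with an intensity trend and robust estimation (-0.35 in each).

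Of the 10 methyltransferases 8 fell and none rose (limma, 0 higher also at an unadjusted p under 0.05). The difference was below 0 for all 10 as deposited, and for all but Ehmt2 and Dot1l under both scalings (0.02 and 0.05 after a second quantile normalization). Among genes above the median level from 61.0 kb in length, the median was -0.383 as deposited and -0.235 after a second quantile normalization. A difference below 0 was thus common in long genes. Kmt2c, an enzyme of enhancer H3K4 methylation, was at 9.06, 8.80 and 8.83 in the RAG-/- arrays and at 7.13, 7.82 and 7.93 in the DNTLX3+ arrays. It fell 2.42-fold (limma adjusted p = 0.00187), the largest fall among the members, and was past the stricter rule whichever array was left out and under both scalings (-1.10 and -1.10). Kmt2a, the leukaemia gene also called Mll1, which maintains HOX expression, was at 10.50, 10.33 and 10.40 and at 8.60, 9.35 and 9.59. It fell 2.34-fold (limma adjusted p = 0.00339), or by 0.94 on the log2 scale without DNTLX3+ replicate 1, the lowest array by far.

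Kmt2e, a KMT2 family protein not known as an active methyltransferase, was at 9.39, 9.38 and 9.33 in the RAG-/- arrays and at 7.80, 8.51 and 8.47 in the DNTLX3+ arrays, a fall of 2.15-fold (limma adjusted p = 0.00235). It was -0.88 without DNTLX3+ replicate 1 and -0.93 after a second quantile normalization, both past the test but not the stricter rule. Nsd1, which methylates H3K36, was at 10.05, 9.86 and 10.00 and at 8.41, 9.25 and 9.31, and fell 1.97-fold (limma adjusted p = 0.00847). In both genes all DNTLX3+ arrays lie under all RAG-/- arrays.

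Kmt2d, the paralog of Kmt2c, was at 9.85, 9.81 and 9.78 in the RAG-/- arrays and at 8.79, 9.41 and 9.50 in the DNTLX3+ arrays on its brighter probe set. That set fell 1.49-fold (limma adjusted p = 0.0339), and lost the call without RAG-/- replicate 1, 2 or 3 (-0.56, -0.58 and -0.59) and after a second quantile normalization (-0.43), and it stood at -0.35 without DNTLX3+ replicate 1. The dimmer probe set of Kmt2d fell by 1.24 on the log2 scale (limma adjusted p = 0.00191). Setd2, which completes the methylation of H3K36, likewise had 2 probe sets, at -0.78 for the brighter (limma adjusted p = 0.0213) and -1.16 for the other (limma adjusted p = 0.00177). The 2 sets averaged 9.46 and 9.45 in RAG-/- and 8.68 and 8.29 in DNTLX3+, so the brighter was chosen mainly through the DNTLX3+ arrays. The brighter lost the call without RAG-/- replicate 1, 2 or 3 (-0.72, -0.82 and -0.80), and it stood at -0.49 without DNTLX3+ replicate 1. Of the H3K9 enzymes, Setdb1 fell 1.42-fold, but not past the threshold without RAG-/- replicate 1 (-0.47). Ehmt1 was at 9.05, 9.01 and 8.91 and at 8.11, 8.71 and 8.58 and fell 1.44-fold (limma adjusted p = 0.0317). Its call was lost without RAG-/- replicate 1, 2 or 3 (-0.49, -0.51 and -0.57) and after a second quantile normalization (-0.33), and the difference was -0.35 without DNTLX3+ replicate 1. Its partner Ehmt2 was at 9.30, 9.25 and 9.30 and at 8.97, 9.33 and 9.14, overlapping between the groups, and Dot1l, the H3K79 enzyme, differed by -0.15.

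Array DNTLX3+ replicate 1 was the lowest of its group for 42 of the 48 members, and for 60.4% of the genes above the median level. It also had the narrowest signal range. The spread in DNTLX3+ was widest among the methyltransferases, with a median SD of 0.39 against 0.17 for PRC2, while in RAG-/- the medians were 0.08 and 0.06. Without replicate 1 the median difference of the methyltransferases was -0.46. Without RAG-/- replicate 1, 8 members fell instead of 19, and 13.2% of all genes fell instead of 19.4%. Without RAG-/- replicate 2 the members that fell were 12, and 14.2% of all genes fell. Without RAG-/- replicate 3 the members that rose were 2 instead of 4, and 2731 of all genes rose instead of 4595. By the stricter rule 1 member, Kmt2c, was lower without DNTLX3+ replicate 1. The 8 genes that fell whichever array was left out were Mtf2, Pcgf3, Phc3, Kdm4c, Kmt2a, Kmt2c, Kmt2e and Nsd1, and these also fell under both scalings.

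Ratios between paralogs within an array do not move when the whole array shifts, and show unequal change rather than levels. They do not remove a change in signal range or a trend with gene length, and the part of either in the ratios was not tested. In most pairs without overlap, the paralog that was lowered more is the longer gene. Phc3 (70.2 kb) is longer than Phc1 (22.5 kb), and Kdm6a (119.1 kb) than Kdm6b (21.9 kb). Kmt2c (227.1 kb) is longer than Kmt2d (42.4 kb), and Ehmt1 (128.9 kb) than Ehmt2 (15.6 kb). Kdm5a (80.5 kb) and Kdm5b (72.7 kb) are closer in length, and Bmi1 (9.6 kb) is shorter than Pcgf2 (13.6 kb). Of 9 pairs, the groups did not overlap in 6. Among single genes, 26.0% were lower and 32.3% higher without overlap, and no share for other gene pairs is given here. The 6 pairs are therefore not read as a trait of paralogs. The log2 ratio of Phc1 to Phc3 was -1.21, -1.0 and -1.15 in the RAG-/- arrays and 0.12, 0.16 and 0.08 in the DNTLX3+ arrays, a shift of 1.24. That of Kdm6a to Kdm6b shifted by -0.87, from -1.18 ± 0.14 to -2.04 ± 0.24 (SD, n = 3), and that of Kdm5a to Kdm5b by -0.60, from -0.18 ± 0.03 to -0.78 ± 0.10. So Kdm6a and Kdm5a were lowered relative to their paralogs on all 3 DNTLX3+ arrays, DNTLX3+ replicate 1 included. The ratio of Ehmt1 to Ehmt2 shifted by -0.39, that of Bmi1 to Pcgf2 by -0.27, and that of Kmt2c to Kmt2d by -0.70, or -0.37 with the mean of the Kmt2d probe sets. The dimmer Kmt2d probe set alone differed by -1.24, close to the -1.27 of Kmt2c, so the Kmt2c to Kmt2d shift rests on the brighter Kmt2d probe set. The Bmi1 to Pcgf2 shift was -0.11 without DNTLX3+ replicate 2, -0.12 after a second quantile normalization and -0.10 with cyclic loess. The exact two-sided permutation p was 0.1 for each of these 6, the smallest that 3 arrays against 3 allow, so no pair can pass 0.05, and adjusted over the 9 pairs it was 0.15. For Ezh1 to Ezh2 (-0.15), Ring1 to Rnf2 (-0.14) and Rbbp4 to Rbbp7 (-0.02) the groups overlapped, with exact permutation p of 0.2, 0.5 and 0.9.

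**Figure D3:**
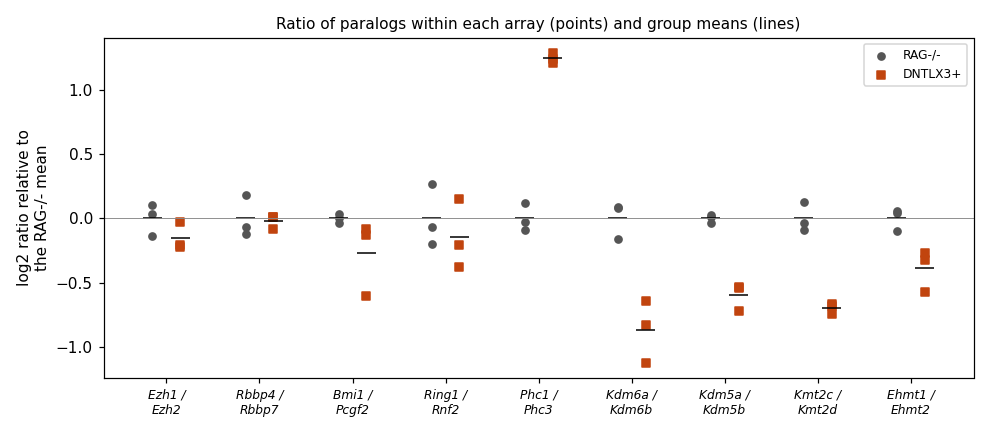
Log2 ratio of 2 paralogs within each array, relative to the mean ratio of the RAG-/- arrays, for 9 pairs, with grey circles for RAG-/-, orange squares for DNTLX3+ and lines for group means. The Phc1 to Phc3 ratio rises by 1.24 with the DNTLX3+ arrays close together, and the ratios of Kdm6a, Kdm5a, Kmt2c and Ehmt1 to their paralogs lie below every RAG-/- value. Kmt2d is drawn by its brighter probe set, on which the Kmt2c to Kmt2d shift rests.

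Many members are long genes, and gene length moved with the groups. Among genes above the median level, the quintile of the longest genes, from 61.0 kb, had a median difference of -0.38 and 47.5% of them fell, while the shortest quintile, up to 6.9 kb, had a median of 0.13 and 17.7% fell. Of the 19 members in the longest quintile, 12 fell and none rose, with a median of -0.60. By the stricter rule 4 of these 19 were lower, where 11.5% of genes of that quintile were. In the next quintile, 6 of 14 members fell, where 36.1% of its genes did. In the 3 quintiles of shorter genes 1 of 15 members fell, Phf1, where 17.7%, 23.8% and 28.2% of all genes did. The median gene length was 74.6 kb for the methyltransferases and 75.2 kb for the demethylases, 35.3 kb for PRC2 and 22.5 kb for PRC1. Kmt2c spans 227.1 kb, and Kmt2a, Kmt2e and Phc3 span 78.0, 71.2 and 70.2 kb. The length of a gene does not give that of its transcript, and the part of length in these falls was not tested.

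**Figure D4:**
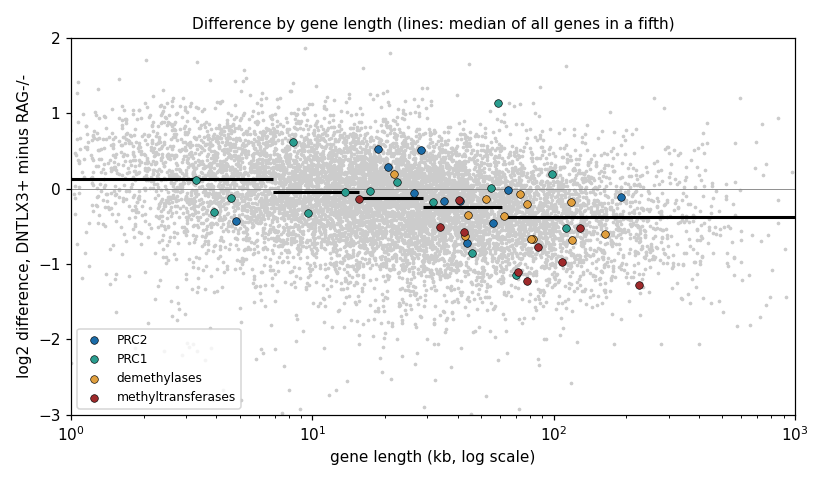
Log2 difference (DNTLX3+ minus RAG-/-) against gene length in kb on a log axis, with grey points for genes above the median level, coloured points for the members by role and black lines for the median of all genes in each quintile of length. The lines step down from 0.13 in the shortest quintile to -0.38 in the longest, Kmt2a, Kmt2c, Kmt2e and Phc3 lie below the last line, and genes beyond the axes are not drawn.

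Other genes of histone methylation and of Polycomb, outside the 49, were followed as well. Of 55 listed, 52 were measured, of which 17 fell, 8 rose and 27 did neither, with a median difference of -0.10. Among all genes above the median level 30.6% fell and 15.1% rose, near the shares of these 52. Kdm7a, a demethylase of H3K9 and H3K27, went from 8.36 ± 0.11 to 7.24 ± 0.29 (SD, n = 3). Kmt5b, an H4K20 enzyme, went from 8.98 ± 0.06 to 7.90 ± 0.30, and Nsd3, a relative of Nsd1, from 9.40 ± 0.07 to 8.37 ± 0.31. These 3 were lower by the stricter rule (-1.12, -1.08 and -1.03, limma adjusted p = 0.00115, 0.00134 and 0.00175), and none was higher by it. None of the 3 met it after a second quantile normalization (-0.95, -0.89 and -0.85) or cyclic loess (-0.95, -0.90 and -0.86). The largest rises past the test were those of L3mbtl2, a chromatin-binding protein of a variant PRC1 (0.59), Riox1, an oxygenase of the same enzyme class as the demethylases (0.54), and L3mbtl4 (0.54), whose means lie under the array medians and which was not called after a second quantile normalization (0.37, limma adjusted p = 0.106). After quantile normalization again 12 of the 52 rose and 12 fell, and the shares of all genes under that scaling are not given here.

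**Figure D5:**
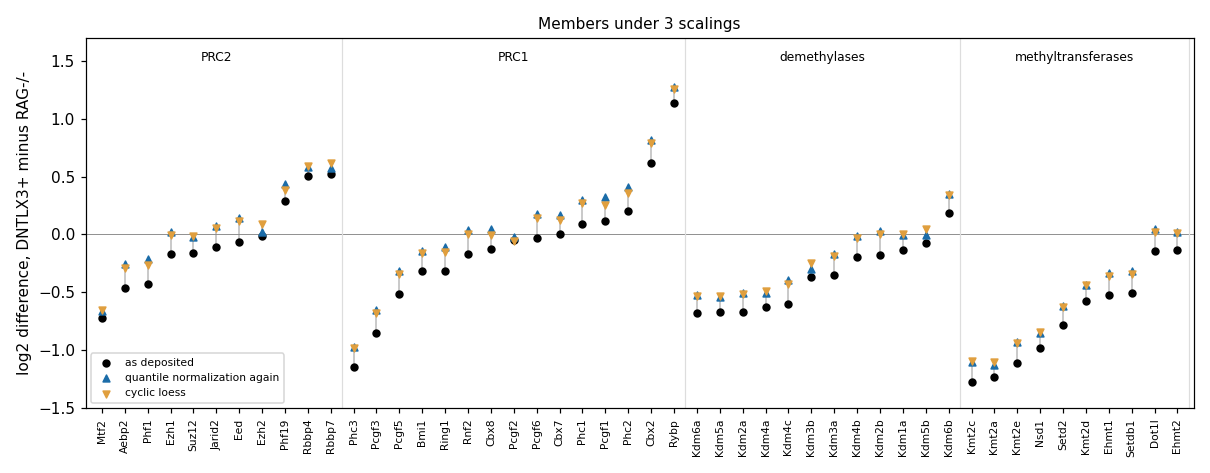
Log2 difference (DNTLX3+ minus RAG-/-) of each measured member, ordered by role and size, from the values as deposited (black circles), after a second quantile normalization (blue triangles up) and after cyclic loess (orange triangles down). Both rescalings lift most members, so that the PRC2 and PRC1 medians move from -0.11 and -0.05 to 0.02 and 0.05 after a second quantile normalization, while Kmt2c and Kmt2a stay below -1.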

How the data were processed

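Transcript levels were measured on 6 arrays with 1 colour, and the titles gave group and replicate number. The authors deposited log2 values, 1 per probe set, and the submitters' processing notes name RMA, the affy package and R 2.9.0. The sources used here do not give a genome build.

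Of 34760 probe sets, the 28192 with genome-ordered numbers were tested with limma 3.58.1 in R 4.3.3 (lmFit and eBayes, two-sided, no covariate), with Benjamini-Hochberg adjustment over all of them. Names came from the platform annotation, with 21640 probe sets of 1 symbol and 1321 of several, from which no gene was named. Chromosomes and gene lengths came from a RefSeq table of GRCm38.p6. Members and lists were chosen with earlier results of these data known. All members are named by role, with values of every array for those past the test at 0.8 or more, for the paralog pairs without overlap, and for Ezh2, Suz12, Eed and Kdm6a; of the other genes of the pathway, those past the stricter rule or the 3 largest differences per direction are named. Fits were tested on simulated data in which few probe sets were shifted. Shifts of 0.8, 1.5 and 2.0 were called in the right direction in 38.8%, 85.1% and 90.9% of cases. A member that missed the test may therefore still differ. Plots were drawn with matplotlib 3.10.9. Alternatives were a second quantile normalization, cyclic loess, equal medians, array weights, an intensity trend with robust estimation, 2 filters on dim probe sets, the replicate block, averaged probe sets, limma treat, leaving out each array and, added after the data were seen, own-locus probe sets. The number of arrays limits the precision.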

Additional observations from a re-analysis of the deposited data

How the results depend on the processing

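The number of members that rose was 4, with 7 after a second quantile normalization and 7 with cyclic loess, and 2 to 6 when 1 array was left out. The number that fell was 19, with 14 after a second quantile normalization, 16 with cyclic loess, and 8 to 22 when 1 array was left out. The shares of all genes that rose or fell under those rescalings are not given here, so these counts have no background beside them. By the stricter rule 4 were lower, with 2 each for a second quantile normalization, cyclic loess and array weights, 1 to 5 when 1 array was left out, and 0 with limma treat. The 1 higher was Rybp, with 0 for the mean of its probe sets, for own-locus probe sets and for limma treat (no member reached an unadjusted p under 0.05 by treat in either direction). Of the falls, 14 of 19 held under both scalings and 8 whichever array was left out.

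The same-numbered arrays did not deviate together (correlations of deviations -0.11, 0.06 and -0.00), within the -0.146 to 0.118 of differently numbered arrays. So no pairing by replicate number was seen, but 3 arrays per group cannot settle whether some were prepared together. With the replicate block no call of a member changed, at 4 higher and 19 lower.

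Members that passed the test neither as deposited nor in the other setting changed sign as follows. After quantile normalization again these were Ezh1 (0.02), Ezh2 (0.023), Eed (0.14), Jarid2 (0.071), Pcgf6 (0.18), Rnf2 (0.041), Cbx8 (0.048), Kdm2b (0.029), Ehmt2 (0.022) and Dot1l (0.049). After cyclic loess these were Ezh2 (0.086), Eed (0.12), Jarid2 (0.055), Pcgf6 (0.14), Rnf2 (0.002), Kdm1a (0.000), Kdm2b (0.001), Kdm5b (0.043), Ehmt2 (0.015) and Dot1l (0.019). With array weights these were Ezh2 (0.013), Eed (0.032), Pcgf2 (0.005) and Kdm5b (0.009), with equal medians Cbx7 (-0.053), and with the mean of its probe sets Eed (0.37). With 1 array left out, Ezh2 ran from -0.068 to 0.059, Eed from -0.15 to 0.12, Jarid2 from -0.23 to 0.013, Pcgf1 from -0.032 to 0.20, Pcgf2 from -0.13 to 0.048, Pcgf6 from -0.13 to 0.044, Cbx7 from -0.047 to 0.11, Phc1 from -0.026 to 0.29 and Kdm5b from -0.18 to 0.035. The shift of the Rbbp4 to Rbbp7 ratio was 0.009 after a second quantile normalization, 0.025 with the mean of probe sets, 0.07 with own-locus probe sets, and -0.079 to 0.071 with 1 array left out. The cause was not tested for any of these.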
